A study of Homo sapiens with 24 samples.

Results

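The genes described here are 10 members of the Notch pathway: the receptors NOTCH1, NOTCH2 and NOTCH3, the ligands JAG1, JAG2 and DLL1, the receptor-modifying enzyme LFNG, and the target repressors HES1, HES4 and HEY1. They were chosen by symbol and are 10 of the 60617 genes in the count table. All 10 passed the filter on low counts and were tested. RNASeq was performed on MDA686TU, a malignant cell line derived from a squamous cell carcinoma of the head and neck. The cells received no treatment (control), EGCG at 40 µM, resveratrol at 15 µM, or both agents at these doses (combination), each for 24 h and each with 6 libraries. EGCG (epigallocatechin gallate) is the main catechin of green tea and was dissolved in water. Resveratrol is a plant stilbene and came from a DMSO stock. Whether control cells received DMSO is not given in the sources used here, so an effect of resveratrol and an effect of its solvent cannot be told apart. All values come from 1 cell line, and nothing in the labels says that the 6 libraries of a group came from separate cultures, so p-values measure the spread between these libraries only.

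Notch receptors are single-pass membrane proteins that bind Jagged and Delta-like ligands on neighbouring cells. Binding is followed by cleavage of the receptor by an ADAM protease and then by gamma-secretase, and the freed intracellular domain joins RBPJ and Mastermind-like proteins at target genes such as those of the HES and HEY families. Fringe enzymes such as LFNG add sugars to the receptor and alter which ligands activate it. In squamous epithelium the pathway is known for its part in the switch from basal growth to differentiation, and loss-of-function changes in NOTCH1 are known in head and neck squamous carcinoma.

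The libraries held 7034872 to 11735574 counts. Of the squamous epithelial markers looked at, all 10 were detected in every group, and their summed FPKM (a level per gene length and library depth) was 5621 to 6011 in the control, 5415 to 6094 after EGCG, 4690 to 4985 after resveratrol and 4545 to 4985 after the combination. Most of these counts were of KRT5, KRT14, KRT6A and KRT17. In raw counts, which are not scaled for depth, all resveratrol libraries lay above all control libraries for KRT16 (5229 to 6692 against 3691 to 4968), DSG3 (1532 to 1977 against 1049 to 1337), DSC3 (1493 to 1850 against 1235 to 1432) and CDH1 (4233 to 5456 against 3377 to 3942). For KRT17 all lay below (16301 to 21157 against 21679 to 25745), and the remaining markers overlapped. In normalized counts, libraries of these 2 groups did not overlap for 31.0% of all genes tested. None of the 4 endothelial or 4 immune markers passed 20 counts in any library. The summed FPKM of 6 fibroblast markers was 13.1 to 15.8 in the control, 10.7 to 13.2 after EGCG, 15.4 to 18.4 after resveratrol and 18.0 to 20.8 after the combination, with most of the counts in COL1A1, while COL3A1, DCN and PDGFRB had at most 2 counts. The part of these marker levels in the results was not tested. In all groups the mitochondrial share of counts was lower in replicates 1 to 3 (0.249% to 0.326%) than in replicates 4 to 6 (0.448% to 0.775%). No label names a batch. For DEGs (defined below) among the 10 genes after resveratrol or the combination, changes within each of these sets of 3 libraries a group are given beside those over all 6. For most other values they are not given.

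Genes were called differentially expressed (DEGs) at a Benjamini-Hochberg adjusted p under 0.1 and an unadjusted p under 0.05, from a quasi-likelihood fit of the raw counts of all 24 libraries in edgeR. No limit was set on the fold change. After EGCG alone, none of the 10 genes was a DEG, against 1.76% of the 15476 genes tested. JAG1 and JAG2 had an unadjusted p under 0.05, and DESeq2 called 0 of the 10. After resveratrol, 5 of 10 were DEGs, against 56.9% of all genes tested. Of these 3 were higher and 2 lower, where 28.9% of all genes were higher and 28.0% lower. After the combination, 5 of 10 were DEGs, against 59.8%, with 2 higher and 3 lower where 29.9% of all genes were higher and 29.9% lower. The libraries did not overlap those of the control for 4 of the 10 genes after resveratrol (31.0% of all genes) and for 3 after the combination (31.9%). All these shares are near the background, so neither count sets the Notch genes apart from other genes. The median size of the change, without regard to sign, was 0.21 on the log2 scale over the 10 genes after resveratrol and 0.20 over all tested genes. After the combination it was 0.18 and 0.22. All comparisons with the control share the same 6 control libraries.

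NOTCH3 had the largest change of the 10 genes (ENSG00000074181, chr19:15159038-15200995, minus strand, GRCh38 in GENCODE). It is a receptor best known from vascular smooth muscle that is also made by squamous epithelium. Its normalized counts (raw counts divided by a size factor per library) had a lowest value of 183, a median of 224 and a highest of 275 in the control, and 187, 206 and 254 after EGCG. They were 328, 372 and 406 after resveratrol and 316, 344 and 466 after the combination. Every resveratrol-treated library, combination included, lay above every library without it. NOTCH3 rose 1.63-fold after resveratrol (log2 0.71, SE 0.0914, edgeR adjusted p = 4.1e-08) and 1.63-fold after the combination (log2 0.71, SE 0.0925, edgeR adjusted p = 3.9e-08). In bulk RNA, more cells that make a transcript and more of it per cell cannot be told apart. In replicates 1 to 3 the log2 rise was 0.82 after resveratrol and 0.97 after the combination, and in replicates 4 to 6 it was 0.61 and 0.47, a DEG in each set. The combination and resveratrol alone differed by a log2 value of 0.00, with a 95% interval from -0.17 to 0.18.

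NOTCH1 and NOTCH2 were not DEGs after any of the treatments. NOTCH1 (ENSG00000148400, chr9:136494433-136546048, minus strand), the receptor most often altered in squamous carcinoma, had normalized counts of 374, 397 and 442 as lowest, median and highest in the control, 312, 375 and 477 after EGCG, 384, 415 and 474 after resveratrol, and 353, 432 and 485 after the combination. These ranges overlap throughout. Its log2 change was 0.07 after resveratrol (95% interval -0.08 to 0.23) and 0.07 after the combination (-0.09 to 0.22). NOTCH2 (ENSG00000134250, chr1:119911553-120100779, minus strand) had the narrowest intervals around no change among the receptors, with medians of 1127, 1125, 1157 and 1174 normalized counts in the control, EGCG, resveratrol and combination groups. All of its libraries lay between 1004 and 1283. The log2 change of NOTCH2 was 0.01 after resveratrol (95% interval -0.09 to 0.10) and 0.03 after the combination (-0.06 to 0.13). With scaling by library size alone, NOTCH1 became a DEG after resveratrol (0.16, edgeR adjusted p = 0.0693), and so did NOTCH2 after resveratrol (0.09, edgeR adjusted p = 0.0733) and after the combination (0.11, edgeR adjusted p = 0.0302). NOTCH2 shares near-identical sequence with the NOTCH2NL genes, 4 of which together held counts equal to 6.55% to 15.3% of those of NOTCH2, and how reads matching several genes were handled is not given in the sources used here.

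**Figure D1:**
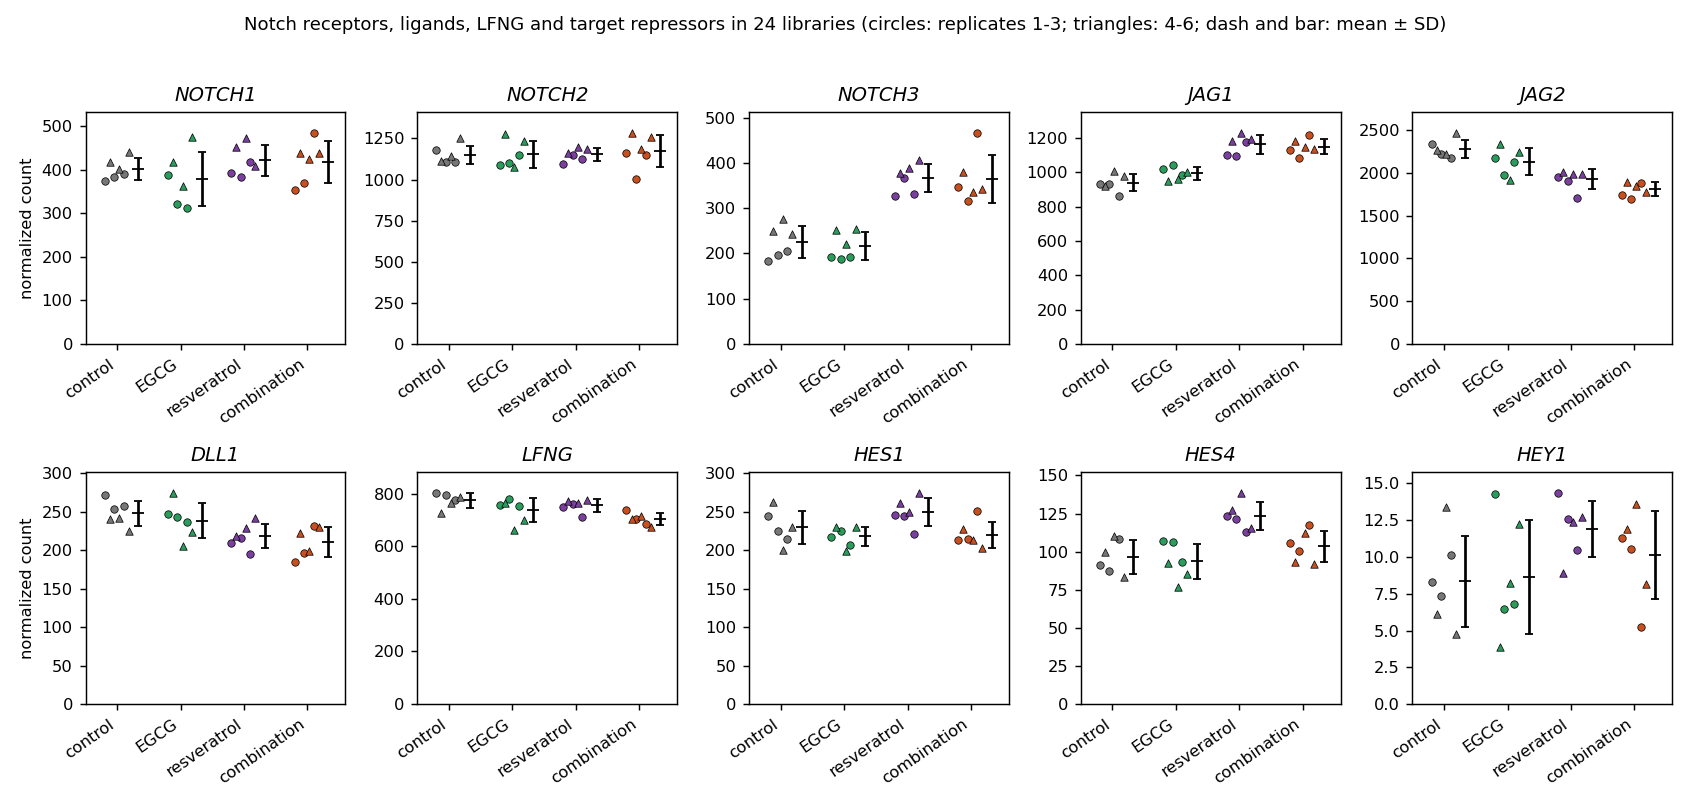
Normalized counts (vertical axis, starting at 0, scaled for each gene) of the 10 genes in the 24 libraries by group, with circles for replicates 1 to 3, triangles for replicates 4 to 6, and a dash and bar for the mean ± SD over 6 libraries. NOTCH3 and JAG1 sit higher and JAG2 lower in all resveratrol-treated libraries than in all control libraries, and NOTCH2 lies between 1004 and 1283 throughout.

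The Jagged ligands moved in opposite directions. JAG1 (ENSG00000101384, chr20:10637684-10673999, minus strand) had lowest, median and highest normalized counts of 862, 932 and 1009 in the control and 946, 993 and 1042 after EGCG. They were 1093, 1178 and 1228 after resveratrol and 1085, 1140 and 1214 after the combination. Resveratrol-treated libraries, combination included, did not overlap the others. JAG1 rose 1.24-fold after resveratrol (log2 0.31, SE 0.0384, edgeR adjusted p = 1.5e-08) and 1.23-fold after the combination (log2 0.30, SE 0.0387, edgeR adjusted p = 4.1e-08). Within replicates 1 to 3 and 4 to 6 the log2 rise was 0.31 and 0.31 after resveratrol and 0.34 and 0.25 after the combination. After EGCG alone all 6 JAG1 libraries lay above the control mean, with a log2 change of 0.08 (95% interval 0.00 to 0.16) that was not a DEG (edgeR adjusted p = 0.45), and the value split into 0.17 for replicates 1 to 3 and 0.00 for replicates 4 to 6.

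JAG2 (ENSG00000184916, chr14:105140982-105168824, minus strand), the ligand with the highest level per length in these cells, had lowest, median and highest normalized counts of 2177, 2247 and 2466 in the control and 1915, 2148 and 2339 after EGCG. They were 1701, 1969 and 2012 after resveratrol and 1696, 1813 and 1894 after the combination. Every resveratrol-treated library, combination included, lay below every control library, and every combination library lay below every EGCG library. JAG2 fell by 0.24 on the log2 scale after resveratrol (SE 0.0434, edgeR adjusted p = 1.3e-05) and by 0.33 after the combination (SE 0.0437, edgeR adjusted p = 4.1e-08). The change was -0.27 and -0.22 after resveratrol, and -0.33 and -0.34 after the combination, in replicates 1 to 3 and 4 to 6. The combination lay 0.09 below resveratrol alone on the log2 scale, which was not a DEG (edgeR adjusted p = 0.265).

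DLL1 (ENSG00000198719, chr6:170282206-170306565, minus strand), a Delta-like ligand that squamous epithelium makes in its basal layer, had lowest, median and highest normalized counts of 225, 247 and 272 in the control and 205, 240 and 274 after EGCG. They were 196, 217 and 241 after resveratrol and 185, 211 and 231 after the combination. The groups overlap, although no library of the resveratrol or combination group reached the control mean of 248. DLL1 fell by 0.19 after resveratrol (SE 0.066, edgeR adjusted p = 0.0174) and by 0.23 after the combination (SE 0.0673, edgeR adjusted p = 0.00404) on the log2 scale. The fall rested mostly on replicates 1 to 3, where the log2 change was -0.33 after resveratrol and -0.34 after the combination. In replicates 4 to 6 it was -0.04 and -0.11 and was not a DEG. With scaling by library size alone the change after resveratrol was -0.10 and was no longer a DEG. DLL1 overlaps FAM120B on the opposite strand, a gene with a mean of 438 normalized counts that rose by 0.23 after resveratrol (edgeR adjusted p = 1.5e-04) and by 0.13 after the combination (edgeR adjusted p = 0.0283). The library kit keeps strand, but whether counting used it is not given in the sources used here, and without strand the reads of the shared stretch cannot be told apart.

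LFNG (lunatic fringe, ENSG00000106003, chr7:2512529-2529177, plus strand) had lowest, median and highest normalized counts of 725, 781 and 802 in the control and 662, 757 and 780 after EGCG. They were 711, 763 and 776 after resveratrol and 675, 704 and 740 after the combination. All 6 combination libraries lay below the control mean of 775, with 1 control library inside their range. LFNG fell by 0.14 on the log2 scale after the combination (SE 0.0388, edgeR adjusted p = 0.00277), by 0.15 in replicates 1 to 3 and by 0.12 in replicates 4 to 6. With scaling by library size alone this change was -0.06 and was not a DEG. The change was -0.03 after resveratrol (95% interval -0.11 to 0.04), which turned to 0.05 with that scaling, and -0.07 after EGCG (-0.15 to 0.00). The combination lay 0.10 below resveratrol alone (95% interval -0.18 to -0.03, edgeR adjusted p = 0.123), so a difference between them was not shown.

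**Figure D2:**
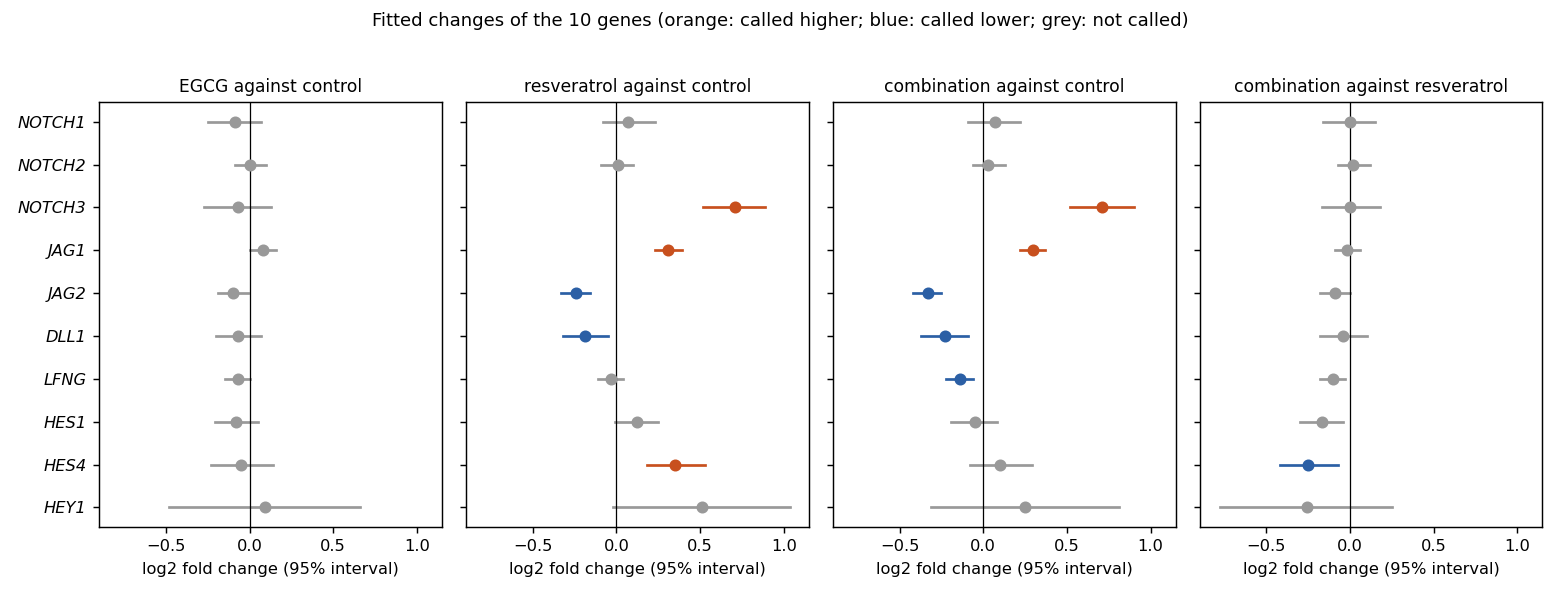
Fitted log2 fold changes (horizontal axis, the same in all panels) of the 10 genes in 4 comparisons, with lines for the 95% interval, orange for higher, blue for lower and grey for not a DEG. NOTCH3 and JAG1 are higher and JAG2 and DLL1 lower after resveratrol and after the combination, HES4 is higher after resveratrol and lower after the combination than after resveratrol, and all values after EGCG lie between -0.10 and 0.09.

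HES1, HES4 and HEY1 encode basic helix-loop-helix repressors that are transcribed when the Notch intracellular domain joins RBPJ on DNA. RBPJ is known to bind the letters TGGGAA, so the 250 bases upstream of the RefSeq start sites (GRCh38.p14) were searched for this motif on both strands. It was found in 3 of 9 windows of the 8 genes that had one, and in 20.8% of 35116 windows over all genes. The windows of HES1 and HES4 are shown because both hold the motif and belong to targets of the pathway. The HES1 window at chr3:194135898-194136147, plus strand, has matches that start 84 and 70 bases before the start site. For HES4 only the 30 bases around its match are given, at chr1:1000156-1000185, minus strand. GENCODE starts the gene at position 1000172, so most of the stretch shown, with all but the first base of the motif, lies within the annotated gene. That match starts 76 bases before the RefSeq start. Capitals mark the motif, and the text runs 5′ to 3′.
HES1: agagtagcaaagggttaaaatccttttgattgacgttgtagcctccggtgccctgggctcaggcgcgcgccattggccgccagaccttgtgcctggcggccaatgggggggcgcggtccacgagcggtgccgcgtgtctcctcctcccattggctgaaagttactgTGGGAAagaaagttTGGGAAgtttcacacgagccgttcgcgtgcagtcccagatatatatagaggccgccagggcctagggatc
HES4: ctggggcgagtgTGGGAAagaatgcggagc

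A match is no more than these letters in this window. The remaining match lay in the window of the downstream LFNG start site, 248 bases before it, and the windows of JAG1, JAG2, NOTCH1, NOTCH2 and NOTCH3 held none.

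HES4 (ENSG00000188290, chr1:998962-1000172, minus strand) had lowest, median and highest normalized counts of 83.6, 95.6 and 110 in the control and 77.1, 92.9 and 107 after EGCG. They were 113, 122 and 138 after resveratrol and 91.7, 103 and 117 after the combination. The resveratrol libraries lay above all control libraries, while the combination libraries overlapped both groups. HES4 rose 1.28-fold after resveratrol (log2 0.35, SE 0.0865, edgeR adjusted p = 8.5e-04), by 0.32 in replicates 1 to 3 and 0.38 in replicates 4 to 6. After the combination its log2 change was 0.10 (95% interval -0.08 to 0.29, edgeR adjusted p = 0.342). With scaling by library size alone this change was 0.19 and was a DEG (edgeR adjusted p = 0.0771).

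HES1 (ENSG00000114315, chr3:194136148-194138732, plus strand), a common readout of Notch activity, had lowest, median and highest normalized counts of 201, 228 and 262 in the control, 199, 222 and 230 after EGCG, 221, 248 and 274 after resveratrol, and 203, 214 and 251 after the combination. The groups overlap throughout. Its log2 change was 0.12 after resveratrol (95% interval -0.01 to 0.25, edgeR adjusted p = 0.108) and -0.05 after the combination (-0.19 to 0.08). The value after resveratrol became a DEG when control replicate 1 (0.14), control replicate 4 (0.16) or resveratrol replicate 3 (0.15) was left out, and with library size alone as the scaling (0.21). HEY1, on chromosome 8, had only 3 to 17 raw counts a library, which limits what can be seen of it. Its lowest, median and highest normalized counts were 4.75, 7.82 and 13.4 in the control, 3.86, 7.51 and 14.3 after EGCG, 8.9, 12.5 and 14.3 after resveratrol, and 5.26, 10.9 and 13.6 after the combination. All 6 resveratrol libraries lay above the control mean of 8.34, and its log2 change was 0.51 (95% interval -0.02 to 1.04). The edgeR adjusted p was 0.0977, but the unadjusted p was above 0.05, so HEY1 was not a DEG. It became one with library size alone (0.60), with only the groups compared (0.52), and without control replicate 3 (0.58), control replicate 5 (0.70) or resveratrol replicate 4 (0.58).

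The design also asks what EGCG added to resveratrol and what resveratrol added to EGCG. Between the combination and resveratrol alone, 1 of the 10 genes was a DEG, against 7.86% of all genes tested, 4 had an unadjusted p under 0.05, and DESeq2 called 0. That gene was HES4 (3.86% of all genes were lower), which fell by 0.25 on the log2 scale (SE 0.0864, edgeR adjusted p = 0.093). This call was lost without resveratrol replicate 1, 2, 4 or 5 and without combination replicate 1, 2, 4 or 6, with an edgeR adjusted p of 0.117 to 0.196, and it was held in neither set of replicates (-0.14 in 1 to 3 and -0.37 in 4 to 6). Leaving out resveratrol replicate 3 raised the number of such DEGs to 4, HES4 with JAG2 (-0.12), LFNG (-0.12) and HES1 (-0.21). Without combination replicate 3, HES1 was a DEG as well (-0.22), and without combination replicate 1 the DEG was LFNG (-0.12).

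Between the combination and EGCG alone, 4 of 10 genes were DEGs, against 57.8% of all genes tested, with 2 higher (28.7% of all genes) and 2 lower (29.1%), and for 3 of them the libraries did not overlap (27.5%). NOTCH3 was higher by 0.78 on the log2 scale (SE 0.0936, edgeR adjusted p = 9.1e-09) and JAG1 by 0.21 (SE 0.0386, edgeR adjusted p = 1.7e-05). JAG2 fell by 0.23 (SE 0.0439, edgeR adjusted p = 2.9e-05) and DLL1 by 0.16 (SE 0.068, edgeR adjusted p = 0.043). The DLL1 call was lost without EGCG replicate 1, 2 or 4 or combination replicate 1 or 2, with an edgeR adjusted p of up to 0.188. It was held in replicates 1 to 3 (-0.24) but not in replicates 4 to 6 (-0.08). NOTCH1 was 0.16 higher (edgeR adjusted p = 0.0916, with the unadjusted p above 0.05) and became a DEG without EGCG replicate 1, 4 or 6 or combination replicate 1 or 2, at log2 values of 0.18 to 0.24. The test of interaction, which asks whether the effect of both agents differed from the sum of their log2 effects, made DEGs of 0 of the 10 genes against 0.265% of all genes. None had an unadjusted p under 0.05, and DESeq2 also called 0. The values with the smallest unadjusted p were -0.10 for JAG1 (95% interval -0.21 to 0.01) and -0.20 for HES4 (-0.46 to 0.06).

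Levels of different genes were compared per length, in FPKM (mean ± SD, n = 6). In the control the order was JAG2 at 40.9 ± 1.89, LFNG at 25.5 ± 0.92, HES1 at 12.8 ± 1.22, JAG1 at 11.6 ± 0.619, HES4 at 9.91 ± 1.14, DLL1 at 7.44 ± 0.488, NOTCH2 at 6.61 ± 0.326, NOTCH1 at 4.33 ± 0.267, NOTCH3 at 2.74 ± 0.436 and HEY1 at 0.296 ± 0.11. Neighbours whose libraries overlap were HES1 with JAG1, JAG1 with HES4, and DLL1 with NOTCH2. After EGCG JAG1 (12.2 ± 0.438) stood before HES1 (12.1 ± 0.712), and their libraries overlapped, as did those of HES4 with DLL1 and of DLL1 with NOTCH2. NOTCH3 was the lowest of the 3 receptors in every control and EGCG library. After resveratrol NOTCH3 reached 4.46 ± 0.378 FPKM beside NOTCH1 at 4.55 ± 0.376, and after the combination 4.44 ± 0.659 beside 4.51 ± 0.526, and their ranges then overlapped. The other overlapping neighbours in both of these groups were JAG1 with HES1, HES1 with HES4, and NOTCH2 with DLL1.

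Ratios taken inside a library do not depend on the scaling between libraries. NOTCH3 to NOTCH1, as a ratio of FPKM, was 0.554 to 0.772 in the control, 0.558 to 0.694 after EGCG, 0.898 to 1.12 after resveratrol and 0.884 to 1.11 after the combination. The share of NOTCH3 in the summed FPKM of NOTCH1, NOTCH2 and NOTCH3 was 20.0% ± 2.32 in the control, 19.7% ± 1.1 after EGCG, 28.5% ± 1.3 after resveratrol and 28.2% ± 2.34 after the combination (SD, n = 6). JAG1 to JAG2 was 0.272 to 0.312 in the control, 0.278 to 0.362 after EGCG, 0.387 to 0.475 after resveratrol and 0.427 to 0.447 after the combination. For both ratios the resveratrol and combination groups did not overlap the other groups. JAG2 still made up 61.3% ± 0.635 of the summed FPKM of JAG1, JAG2 and DLL1 after the combination, against 68.2% ± 1.11 in the control. Summed levels, unlike ratios, do depend on the scaling between libraries. The summed ligand level was 59.9 ± 2.01 FPKM in the control, 57.5 ± 3.27 after EGCG, 55.3 ± 2.69 after resveratrol and 52.8 ± 2.4 after the combination. That of the 3 receptors was 13.7 ± 0.811, 13.4 ± 1.4, 15.6 ± 0.843 and 15.7 ± 1.41 FPKM in the same order. HES1 to HES4 was 0.99 to 1.5 in the control and overlapped in all groups.

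**Figure D3:**
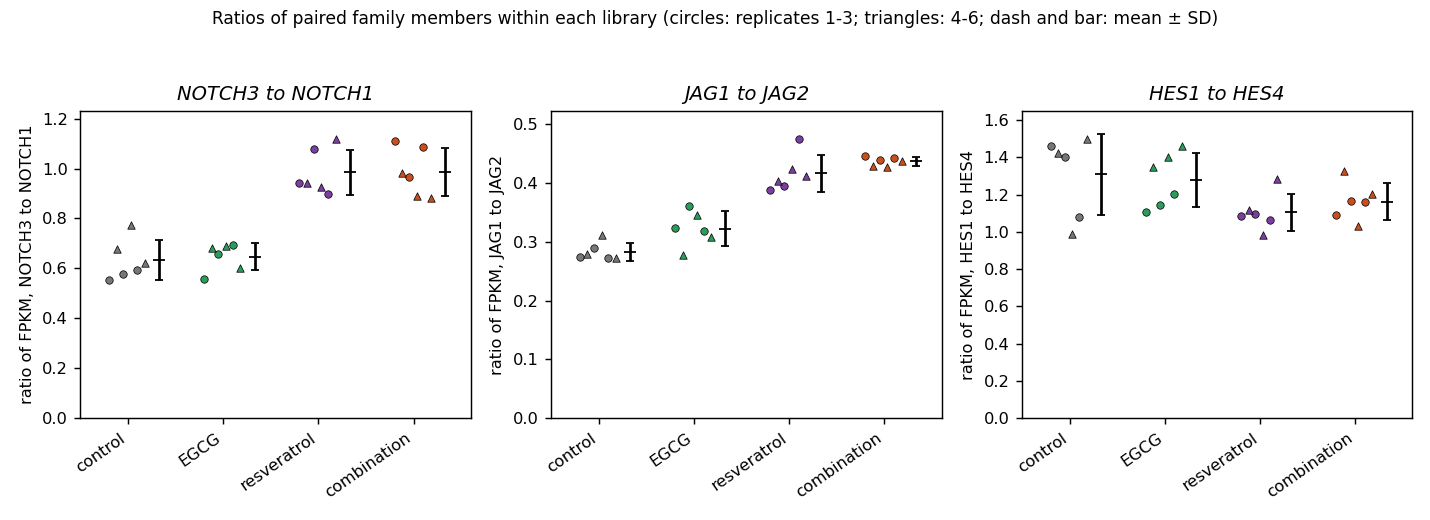
Ratios of FPKM between family members within each library (vertical axis, starting at 0) by group, with circles for replicates 1 to 3, triangles for replicates 4 to 6, and a dash and bar for the mean ± SD over 6 libraries. NOTCH3 to NOTCH1 and JAG1 to JAG2 are higher in all resveratrol-treated libraries than in the others, at 0.884 or more against at most 0.772 and at 0.387 or more against at most 0.362, while HES1 to HES4 overlaps in all groups.

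Likeness to NOTCH3, JAG1 and JAG2 was measured as the mean absolute difference in log2 CPM (counts scaled to library size), each gene taken relative to its own control mean, over the 24 libraries. The nearest genes were picked by this measure from all tested genes, so their closeness and their like changes follow from the choice. The genes most like NOTCH3 were NID1 (0.124), MOV10 (0.125) and TOM1L2 (0.127), where the median over all tested genes was 0.466. NID1 encodes nidogen, a basement membrane protein, and its log2 change was 0.62 after resveratrol and 0.65 after the combination. Among the genes most like JAG1 were OGDH (0.0478) and ACLY (0.0518), against a median of 0.262. OGDH is a subunit of a citric acid cycle enzyme and ACLY makes acetyl-CoA from citrate. Most like JAG2 were HSPA1A (0.0444), NUP98 (0.0475) and MPRIP (0.0503), against a median of 0.251.

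Beside the 10 genes, 81 further genes of the pathway were listed by role, and 73 of them passed the filter on low counts. The list was chosen with earlier results of these data known, so counts within it do not test the pathway against other genes. After EGCG alone 0 of the 73 were DEGs, against 1.76% of all genes tested (7 at an unadjusted p under 0.05, 0 by DESeq2). After resveratrol 51 were DEGs, 27 higher and 24 lower, which is 69.9% against 56.9% of all genes tested. After the combination 53 were DEGs, 27 higher and 26 lower, 72.6% against 59.8%. Their median log2 change was 0.00 with either treatment. Of the 73, 11 were DEGs between the combination and resveratrol alone, 6 higher and 5 lower, against 7.86% of all genes tested. Of the other receptors and ligands, NOTCH4, DLL3, DLL4 and DLK1 did not pass the filter, with at most 13 counts in any library.

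Of the 9 genes for receptor cleavage, 7 were higher and 0 lower after resveratrol, where 28.9% of all genes tested were higher and 28.0% lower. After the combination 7 were higher and 1 lower, where 29.9% of all genes were higher and 29.9% lower. ADAM17, a sheddase that can make the first cut, rose by 0.35 after resveratrol and 0.41 after the combination on the log2 scale. The 1 lower gene after the combination was ADAM10 (log2 -0.09, edgeR adjusted p = 0.0478). ADAM10 was not a DEG after resveratrol (-0.05). The gamma-secretase subunits NCSTN, APH1B and PSENEN rose by 0.44, 0.78 and 0.32 after the combination. Of the 8 other glycosylation genes tested, 5 were DEGs after the combination, 1 higher and 4 lower, against 59.8% of all genes tested. MFNG (manic fringe) fell by 1.03 after resveratrol and by 1.03 after the combination, from 1.98 FPKM in the control to 0.972 and 0.971, the largest fall after the combination among the 73 genes. RFNG (radical fringe) rose by 0.27, and POGLUT1 and EOGT, which attach glucose and GlcNAc to the receptor, fell by 0.32 and 0.24 after the combination. Of the 6 other ligands tested, 5 were DEGs after the combination, where the share of all genes was again 59.8%, with EGFL7 higher (0.55) and MFAP2 (-0.24), CNTN1 (-0.22) and MFAP5 (-0.11) among the 4 lower.

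Of 17 ubiquitin ligase and trafficking genes, 12 were DEGs after the combination (59.8% of all genes tested), 7 higher and 5 lower, led by DTX3L (0.73), NEURL1 (-0.49), DTX2 (0.42) and DTX3 (0.42). NEURL1 had at most 42 raw counts in any library, and its fall was a DEG in replicates 1 to 3 but not in 4 to 6. Of 21 genes of the nuclear complex, 14 were DEGs against the same 59.8%, 6 higher and 8 lower, with KAT2B (0.72), an acetyltransferase that serves as a coactivator, TLE2 (0.61), L3MBTL3 (-0.52) and MAML2 (0.44) the largest. TLE2 had at most 23 raw counts in any library and was not a DEG in replicates 1 to 3. MAML2 had at most 50 and was not a DEG in replicates 4 to 6. Of the 6 other HES and HEY family genes and NRARP tested, 5 were DEGs after resveratrol (56.9% of all genes tested), 4 higher and 1 lower. After the combination 3 were DEGs (59.8%), 2 higher and 1 lower. HES6, with at most 38 raw counts in any library, rose by 1.03 and HES7 fell by 0.53 after the combination. NRARP, itself a Notch target, rose by 0.25 after resveratrol and 0.17 after the combination, the latter a DEG in replicates 1 to 3 but not in 4 to 6. The 6 keratinocyte genes tied to Notch were all DEGs after the combination (59.8% of all genes tested), and all were DEGs between the combination and resveratrol alone (7.86%), 3 in each direction. As these 6 were listed with earlier results of these data known, the counts are no test of such genes against others. CDKN1A, the cell cycle inhibitor p21, rose by 1.11 after resveratrol and by 1.36 after the combination. IVL (involucrin), KRT1 and KRT10, which mark differentiating layers, fell by 0.75, 0.52 and 0.32 after the combination. The falls of IVL and KRT10 were DEGs in each set of replicates. That of KRT1 was a DEG only in replicates 4 to 6 (-0.79, against -0.27 in replicates 1 to 3). KRT10 was the 1 DEG of the interaction among the 73 genes (log2 -0.24, edgeR adjusted p = 0.0185), against 0.265% of all genes tested. It was a DEG of the interaction in neither set of replicates (-0.25 in 1 to 3 and -0.22 in 4 to 6). Of the 73 genes, 12 had an unadjusted p under 0.05, for which the share of all genes is not given here, and DESeq2 called 3.

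**Figure D4:**
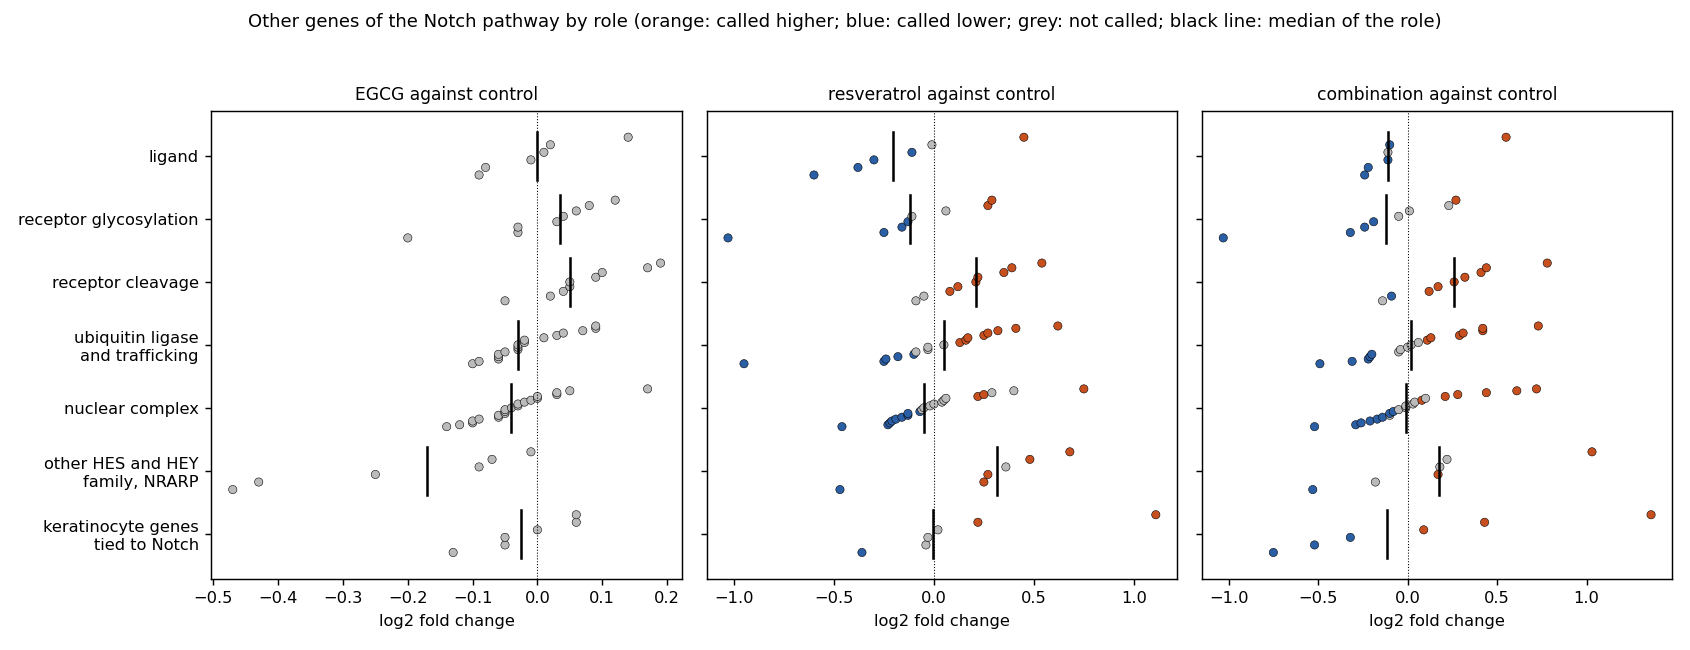
Fitted log2 fold changes (horizontal axis, scaled separately in each panel) of the 73 tested further genes of the Notch pathway by role, with orange for higher, blue for lower, grey for not a DEG and a black line for the median of the role. No gene is a DEG after EGCG alone (1.76% of all genes tested). Of 9 receptor cleavage genes, 7 are higher and 0 lower after resveratrol (28.9% and 28.0% of all genes). After the combination 7 are higher and 1 lower (29.9% and 29.9%).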

How the data were processed

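The authors isolated total RNA from MDA686TU cells, prepared TruSeq stranded mRNA libraries, sequenced paired reads, and list bcl2fastq 2.17.1.14, Trimmomatic 0.36, FastQC 0.11.5, HISAT2 2.0.4, SAMtools 1.3.1 and DESeq2 1.20.0 with GRCh38 in their processing notes. The counting program, annotation release and strand setting are not given in the sources used here. The authors deposited raw counts per gene, which all tests used. The deposited normalized counts (signal) equal raw counts over a size factor that is constant within each library. The deposited FPKM values were checked to be these normalized counts times 1 constant per gene, and were used to compare levels between genes. Library totals were 7034872 to 11735574 counts. At this depth counting error is small for genes with many counts and large for HEY1, and the SD over 6 libraries includes it.

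Symbols, positions and overlaps came from GENCODE, which gave a symbol for 60261 of 60617 genes. The 24 libraries were fitted in edgeR 4.0.16 (R 4.3.3) with TMM normalization, filterByExpr (15476 genes kept) and the quasi-likelihood test, with Benjamini-Hochberg adjustment over all tested genes. DEGs had an adjusted p under 0.1 and p under 0.05, after the study's methods, with no limit on the fold change. The numbers of DEGs that the study lists carry fold cut-offs as well, so they are not comparable with those given here. Likeness used log2 CPM with a prior count of 2. The fitting step was tested on simulated data. The alternatives were the DESeq2 1.42.0 Wald test, other scalings and filters, an adjusted p under 0.05, only the groups compared in the fit, replicate number or set of replicates as a term, each set of replicates alone, and each library left out. Promoter windows came from RefSeq. The 10 members, the list of 81 further genes and the marker lists were chosen with earlier results of these data known. Of the further genes, the text names up to 4 DEGs per role with the largest change with the combination, the interaction DEG, and those untested or overlapping a member. ADAM10 is named as well, as the lower gene of its role. The values of some genes under these rules are not reported here.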

Additional observations from a re-analysis of the deposited data

Results flagged for a closer look

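In the resveratrol group, JAG2 in replicate 3 was the lowest of 6 libraries at 1701 normalized counts and lay apart from the others. The gap to the next library was 0.64 of the range of the group. Of 40 groups of 6 values examined (10 genes in 4 groups), this was the only 1 set apart in this way, and chance sets apart about 1 in 20 such groups. JAG2 was a DEG with resveratrol without any single library, with log2 changes of -0.26 to -0.21.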

How the results depend on the processing

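Over 6 comparisons, 15 values of the 10 genes were DEGs, and none changed direction under any alternative run. All 15 kept their call with DESeq2 size factors, with the replicate block, with the set of replicates as a term and with only the groups compared. Library size alone lost 3 and gave 11 others. It raised the median log2 change of all genes to 0.092 after resveratrol and 0.081 after the combination. Replicates 4 to 6 alone lost 4. Replicates 1 to 3 alone, DESeq2 and each other filter on low counts lost 1. Leaving out 1 library lost 13 of 180. HEY1 had 3 to 17 counts a library, which limits its precision.

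The shares of all genes that were DEGs under the alternative runs are not given here, so the counts in this paragraph have no background beside them. The number of the 10 genes that were DEGs after resveratrol was 8 with library size alone. Between the combination and resveratrol it was 3 with library size alone, 2 with the replicate block, 0 with every gene of at least 1 count, in replicates 1 to 3 alone, with DESeq2 and at an adjusted p under 0.05, and 0 to 4 with 1 library left out. Of the further genes, the number after EGCG was 1 with the replicate block, 1 with the set of replicates as a term and 0 to 1 with 1 library left out. Between the combination and resveratrol it was 5 in replicates 1 to 3 alone. In the interaction it was 2 with the replicate block, 2 with the set of replicates as a term, 0 in replicates 1 to 3 alone, 0 in replicates 4 to 6 alone, 3 with DESeq2 and 1 to 2 with 1 library left out. Causes were not tested.

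Libraries of different groups with the same replicate number were only weakly alike. The correlation of deviations between groups for the same number had a median of 0.0488 (-0.0111 to 0.131), against -0.012 for different numbers. Of 24 libraries, 11 correlated best with their own number. The replicate block added HES1 between the combination and resveratrol (-0.17) and NOTCH1 between the combination and EGCG (0.15).

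None of the log2 values that changed sign was a DEG in the fit of all 24 libraries with TMM. The largest of them in that fit was 0.16, for HEY1 between the combination and EGCG. After EGCG, NOTCH2 (0.0014) was -0.00047 with DESeq2 size factors, -0.00058 with the set of replicates as a term, -0.02 in replicates 1 to 3, -1.3e-05 with only the groups compared, -0.00033 with DESeq2 and -0.03 to 0.03 with 1 library left out. HES4 was 0.10 in replicates 1 to 3 and -0.10 to 0.02 with 1 library left out, and HEY1 was -0.14 to 0.26. After resveratrol, NOTCH2 was -0.0022 in replicates 1 to 3 and -0.0057 to 0.03 with 1 library left out, and LFNG was 0.05 with library size alone and 0.02 in replicates 4 to 6. After the combination, NOTCH2 was -0.03 in replicates 1 to 3, and HES1 was 0.03 with library size alone and 0.0023 in replicates 1 to 3.

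Between the combination and resveratrol, in replicates 1 to 3, NOTCH1 was 0.03, NOTCH2 -0.03 and JAG1 0.03. NOTCH3 was -0.0028 with library size alone, -0.00076 with the replicate block, -0.14 in replicates 4 to 6, -9.1e-05 with only the groups compared and -0.0039 with DESeq2. With 1 library left out NOTCH1 was -0.06 to 0.04, NOTCH2 -0.0027 to 0.07, NOTCH3 -0.09 to 0.04 and JAG1 -0.03 to 0.00072. Between the combination and EGCG, NOTCH2 was -0.007 and HEY1 -0.12 in replicates 1 to 3, LFNG was 0.01 with library size alone, and HES1 was -0.02 in replicates 4 to 6 and -0.02 to 0.06 with 1 library left out. In the interaction, NOTCH1 was -0.0063, NOTCH3 -0.05, JAG2 -0.0084 and DLL1 -0.04 in replicates 4 to 6, NOTCH2 was -0.0048 and HES1 0.0068 in replicates 1 to 3, and JAG2 was -0.00081 with library size alone. With 1 library left out NOTCH2 was -0.0043 to 0.06, NOTCH3 -0.02 to 0.13, JAG2 -0.02 to 0.04 and DLL1 -0.02 to 0.06.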
